A study of Arabidopsis thaliana with 12 samples.

Results

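The genes described here carry nitrate into and through the root of Arabidopsis thaliana and reduce it to ammonium. They are the 10 genes listed by name for this purpose: the transporters NRT1.1 (AT1G12110), NRT1.5 (AT1G32450), NRT1.8 (AT4G21680), NRT2.1 (AT1G08090), NRT2.2 (AT1G08100) and NRT2.4 (AT5G60770), the partner protein NRT3.1 (AT5G50200), the nitrate reductases NIA1 (AT1G77760) and NIA2 (AT1G37130) and the nitrite reductase NIR1 (AT2G15620). The rule that takes them uses gene names and no measured value, but the members were chosen with earlier results of these data known. All 10 were found among the 23106 genes of the deposited tables. Of these 10 genes, NRT1.5 alone passed the test for a response to cellotriose, and it did so in roots with an intact CORK1 gene, where its level was 4.02-fold lower after 1 h.

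CORK1 encodes a receptor kinase with a malectin domain, and cellotriose (CT) is a short chain of glucose units released from cellulose. The seedlings came from cork1-2, a T-DNA insertion line of CORK1, after a cross to a wild type that carries the calcium reporter aequorin, so every group shares that crossed background. Roots of segregated wild type (SWT) and of seedlings homozygous for the insertion (HO) were given 1 mL of water or of 10 µM CT for 1 h. This gave 4 groups of 3 poly-A RNA-seq libraries (12 in all), each made from 16 seedlings on 2 dishes that had grown on MS medium for 10 days and on PNM medium for 1 day. Nitrate supply was not varied. The mutant is a single insertion allele, and the labels number the replicates without saying whether they were grown on separate days, so the tests measure the spread between these libraries.

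Nitrate enters root cells through low-affinity transporters of the NRT1 family and high-affinity transporters of the NRT2 family, which need NRT3.1 at the plasma membrane. Part of it is stored in the vacuole, part is loaded into the xylem and carried to the shoot, and part is reduced in the root. Nitrate reductase in the cytosol makes nitrite, and nitrite reductase in the plastid makes ammonium, which glutamine synthetase then fixes. Many of these genes are known for rapid induction by nitrate and for repression by reduced nitrogen.

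The 250 bases upstream of the annotated start are shown for the 4 genes that passed a test in at least 1 comparison below. They were read 5′ to 3′ from the TAIR10.1 assembly of RefSeq, on the strand of the gene. Capitals mark TTGAC, the core of the W-box that WRKY factors bind, or its reverse complement GTCAA. The windows are chr1:4104973-4105222 on the plus strand for NRT1.1, chr1:11719989-11720238 on the minus strand for NRT1.5, chr5:24444115-24444364 on the plus strand for NRT2.4 and chr1:29239485-29239734 on the minus strand for NIA1.
NRT1.1: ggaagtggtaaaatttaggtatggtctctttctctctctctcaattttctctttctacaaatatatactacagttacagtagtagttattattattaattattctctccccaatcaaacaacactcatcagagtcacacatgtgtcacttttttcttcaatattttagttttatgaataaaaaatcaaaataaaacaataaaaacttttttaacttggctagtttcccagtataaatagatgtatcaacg
NRT1.5: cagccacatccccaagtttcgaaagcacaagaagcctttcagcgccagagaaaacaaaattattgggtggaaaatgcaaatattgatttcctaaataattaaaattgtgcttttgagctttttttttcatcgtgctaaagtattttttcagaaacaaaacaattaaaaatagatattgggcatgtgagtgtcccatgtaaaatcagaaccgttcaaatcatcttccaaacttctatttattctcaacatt
NRT2.4: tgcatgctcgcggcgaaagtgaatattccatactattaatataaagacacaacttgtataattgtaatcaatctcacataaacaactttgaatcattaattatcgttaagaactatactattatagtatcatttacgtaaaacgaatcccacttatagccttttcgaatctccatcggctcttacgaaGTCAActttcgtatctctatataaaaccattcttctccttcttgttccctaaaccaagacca
NIA1: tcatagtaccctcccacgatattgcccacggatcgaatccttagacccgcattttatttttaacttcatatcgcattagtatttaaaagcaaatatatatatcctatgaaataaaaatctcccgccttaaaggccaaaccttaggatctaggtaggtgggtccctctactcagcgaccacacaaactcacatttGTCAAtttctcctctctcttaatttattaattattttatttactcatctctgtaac
No W-box core was in the windows of NRT1.5 and NRT1.1, and none was in that of NRT3.1. NRT2.4 held a core that begins 62 bases upstream of its start, and NIA1 held a core that begins 56 bases upstream. Of the 10 genes, 7 held at least 1 core on either strand, against 44.9% of 27443 promoter windows of the same length. The longer W-box, TTGACC or TTGACT, was in 4 of the 10 (NRT2.1, NRT2.4, NIA2 and NIR1), against 28.4%. NIA1 held the core without it. The NIGT1 site GAATATTC was in 1 of the 10, NRT2.4, beginning 230 bases upstream, against 0.86% of all windows. The nitrate-responsive element, searched on both strands as GACNCTT, then 10 bases, then AAG, was in 0 of the 10 windows and in 0.146% of all windows.

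NRT2.1 and NRT2.2 are shown together because their reads can be shared. Both lie on chromosome 1, 847 bases apart and tail to tail, NRT2.1 on the plus strand at chr1:2524023-2526322 and NRT2.2 on the minus strand at chr1:2527170-2529120. The lines below give 120 aligned bases, coding bases 81 to 200 of NRT2.1 and 75 to 194 of NRT2.2, with the 25 bases that differ in capitals.
NRT2.1: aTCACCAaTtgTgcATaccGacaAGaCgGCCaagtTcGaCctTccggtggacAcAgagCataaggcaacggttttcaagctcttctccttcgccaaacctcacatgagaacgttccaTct
NRT2.2: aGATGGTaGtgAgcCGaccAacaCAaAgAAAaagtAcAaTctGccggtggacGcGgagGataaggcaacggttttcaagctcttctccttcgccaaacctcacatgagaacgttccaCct
The differing bases are crowded into the left part, and a long identical stretch follows. Over the whole coding sequence the 2 genes were 89.4% identical, and the longest identical run was 170 bases. A share of 5.72% of the 75-base windows in the exons of NRT2.1 and of 7.26% in those of NRT2.2 occurred elsewhere in the genome. How reads from such windows were counted is not known, so the count of NRT2.2 is uncertain. The levels themselves were 39.2 per kb for NRT2.2 and 7641 per kb for NRT2.1 in SWT in water. Even a small share of NRT2.1 reads counted for NRT2.2 would therefore change the value of NRT2.2. The other 8 genes had 0 repeated windows. NIA1 and NIA2 were 73.8% identical and shared no run longer than 20 bases.

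The deposited tables hold results and no value per library, so group means of the normalized count were recovered from the overall mean and the fold changes of the authors' DESeq2 fit, with 95% intervals from the spread that fit assigned to each gene. Depth per library is unknown. The insertion was visible in CORK1, whose level in water differed between HO and SWT by a log2 value of -2.47, lower in HO (SE 0.16, DESeq2 Wald test, adjusted p 2.93e-52). All 10 root markers were detected, with recovered means from 113 to 18044 in SWT in water, and the 13 shoot markers, photosynthesis genes, summed to 10147, or 0.0505% of the counts. In bulk roots, fewer cells of a type and less RNA per cell cannot be told apart.

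Levels were compared between genes as normalized counts per kb of exon. In SWT in water, NRT2.1, the main high-affinity uptake transporter of the root, led at 7641 per kb. NRT1.1, a transporter that also senses nitrate, followed at 5951 per kb, NRT1.5 at 5780 per kb and NRT3.1 at 5655 per kb. These 4 neighbours did not differ beyond their 95% intervals. NIR1 at 3139 per kb and NIA2 at 3137 per kb came next and did not differ from each other, but both were below NRT3.1 and above NIA1 at 1036 per kb. NRT2.4, NRT1.8 and NRT2.2 stood far below at 80.5, 62.3 and 39.2 per kb, with neighbours again within their intervals. The list therefore holds 7 abundant and 3 scarce genes in these roots. In SWT with CT the order differed at several places. NRT1.5 stood at 1439 per kb, below NIR1 at 2525 per kb and above NIA1 at 476 per kb. NIA2 at 3603 per kb was above NIR1, and NRT1.8 at 91.9 per kb was above NRT2.4 at 38.3 per kb, both beyond their 95% intervals. NRT3.1 at 7144 per kb led NRT2.1 at 6549 per kb, a gap within its interval. In HO the 7 abundant genes kept 1 order in water and with CT, with NRT1.5 between NRT1.1 and NRT3.1 at 5625 and 6667 per kb.

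**Figure D1:**
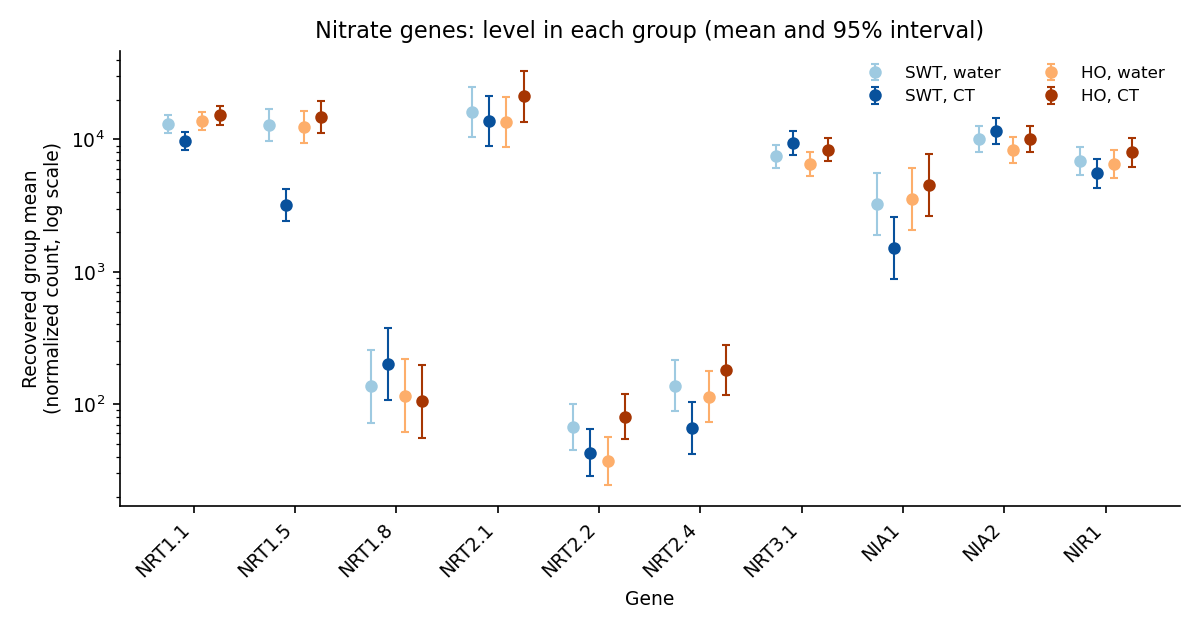
Recovered group mean of the normalized count (log axis) of the 10 nitrate genes in SWT and HO roots with water or CT; points are means of 3 libraries and bars are 95% intervals. NRT1.5 in SWT with CT lies at 3190, apart from 12809, 12465 and 14775 in the other groups.

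The genes also differed in the replicate variation that the DESeq2 fit assigned to them. This variation was not measured between libraries, since no value per library was available. The replicate coefficient of variation implied by the fit, taken at the mean over all groups, was 13.9% for NRT1.1, 18.2% for NRT3.1, 19.8% for NIA2, 21.9% for NIR1 and 24.6% for NRT1.5. It was 35.3% for NRT2.2, 38.5% for NRT2.1, 39.1% for NRT2.4, 47.7% for NIA1 and 55.8% for NRT1.8. The same fold change therefore carries a wider interval in the second set, which includes the abundant NRT2.1 and NIA1.

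The question of CT against water in SWT is which nitrate genes respond when CORK1 is intact. NRT1.5 loads nitrate into the xylem from cells around the root vasculature. It lies at chr1:11715147-11719988 on the minus strand in 6 exons, and 16 of its 2216 exon bases overlap AT1G32440 on the other strand. Its normalized count was 12809 (95% interval 9694 to 16925) with water and 3190 (2413 to 4217) with CT, with no overlap of the intervals. The log2 fold change was -2.01 (SE 0.29, n = 3 per group, DESeq2 Wald test, adjusted p 3.31e-10), with a 95% interval from -2.57 to -1.44. Ordered by the Wald statistic, NRT1.5 was number 8 from the low end of all genes. It was also past the study's fold criterion of 2.51-fold. A test against that criterion itself, which asks that the true change exceed 2.51-fold, did not call NRT1.5 (adjusted p 1).

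No other of the 10 genes passed the test in SWT. The count called lower was 1 of 10, beside 3.23% of all genes tested, and the count called higher was 0 of 10, beside 8.3%, or 11.5% in either direction. Of the 10 log2 fold changes 7 were negative, with a median of -0.37 against -0.011 over all genes. An unadjusted p below 0.05 was found for NRT1.5, NRT1.1, NRT2.4 and NIA1, 4 genes with lower values in CT, beside 20.8% of all genes in either direction.

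Among the uptake transporters, NRT1.1 at chr1:4105223-4109601 had a normalized count of 13104 (95% interval 11195 to 15338) with water and 9746 (8325 to 11409) with CT. Its log2 fold change of -0.43 (SE 0.16) missed the threshold at a DESeq2 adjusted p of 0.0708, and the intervals of the groups overlapped slightly. NRT2.1 had a log2 fold change of -0.22 (SE 0.45), from 16129 to 13826, and its 95% interval of -1.11 to 0.67 leaves a change of either sign. NRT2.2, a minor high-affinity transporter, went from 67.0 to 42.8, a log2 fold change of -0.65 (SE 0.42). NRT2.4, at chr5:24444365-24447127, acts at very low nitrate and is known from nitrogen-starved roots. Its level was 138 (88.8 to 215) with water and 65.7 (41.8 to 103) with CT, a log2 fold change of -1.07 (SE 0.47, DESeq2 adjusted p 0.128). The values of all 4 uptake transporters were thus lower with CT, and none passed the test.

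The remaining members of the transport group had higher values with CT. NRT3.1, at chr5:20436180-20437815, went from 7437 to 9395, a log2 fold change of 0.34 (SE 0.21, DESeq2 adjusted p 0.373). NRT1.8 removes nitrate from the xylem, the opposite step to that of NRT1.5. It lies at chr4:11517353-11519805, where 44 exon bases overlap AT4G21670 on the other strand. Its count was 136 (72.5 to 256) with water and 201 (107 to 377) with CT, and the 95% interval of its log2 fold change, -0.73 to 1.84, spans both directions.

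The reductases did not move as a group. NIA1, at chr1:29235721-29239484, had 3268 (1905 to 5606) with water and 1502 (875 to 2578) with CT, a log2 fold change of -1.12 (SE 0.56, DESeq2 adjusted p 0.217). NIA2, at chr1:14158452-14161938 and known as the isoform that supplies most of the activity, had 10053 and 11548, a log2 fold change of 0.20 (SE 0.23). NIR1, at chr2:6810395-6812941, had 6884 and 5536, a log2 fold change of -0.31 (SE 0.26). The interval of NIA2, from -0.26 to 0.66, leaves out a decrease as large as the point value of NIA1, whereas the interval of NIA1 is wide, from -2.22 to -0.02.

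Shoot markers moved with these results. Their summed level was 10147 in SWT with water and 6471 with CT, against 11285 and 10608 in HO. Of the 12 tested, 4 (LHCB2.1, LHCB3, PSBO1 and RCA) fell with CT in SWT, beside 3.23% of all genes called lower, and 0 rose. The median log2 fold change was -0.77 over the list, against -0.011 over all genes. Root markers summed to 28272 and 28294 in SWT and to 31331 and 31651 in HO, and 0 of 10 were called. Whether the shoot marker difference plays a part in the decrease of NRT1.5 was not tested.

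**Figure D2:**
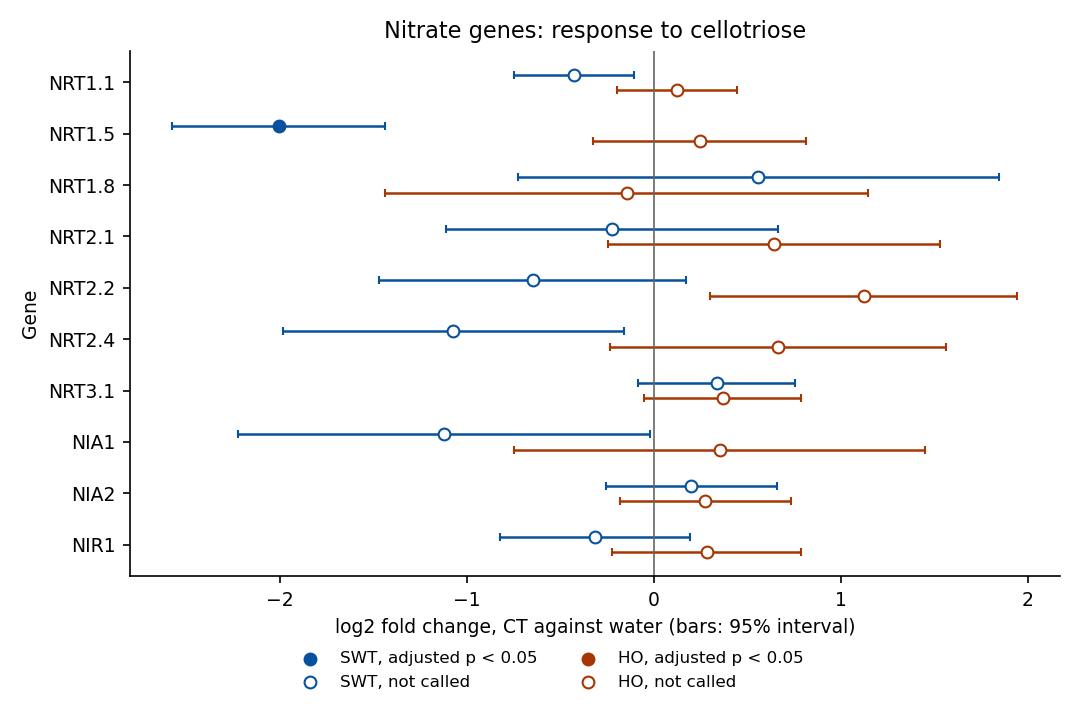
Log2 fold change of CT against water (x axis) for the 10 nitrate genes in SWT and in HO; points are estimates, bars are 95% intervals and filled points passed an adjusted p of 0.05. NRT1.5 in SWT at -2.01 is the filled point, and 9 of the 10 HO points lie to the right of 0.

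In HO, the same treatment was given without an intact CORK1. No gene of the list was called, 0 of 10 beside 0.00866% of all genes, and the DESeq2 adjusted p was 1 for each of the 10. NRT1.5 went from 12465 (95% interval 9434 to 16471) to 14775 (11182 to 19523), a log2 fold change of 0.25 (SE 0.29). Its interval of -0.32 to 0.81 leaves out the decrease measured in SWT. Of the 10 values 9 were positive, with a median of 0.32 against -0.0073 over all genes. NRT2.2 was the 1 gene of 10 at an unadjusted p below 0.05, beside 1.85% of all genes. It went from 37.0 (24.4 to 56.0) to 80.5 (54.4 to 119), a log2 fold change of 1.123 (SE 0.42, unadjusted Wald p 0.00748). NRT2.1 next to it went from 13509 to 21125, a log2 fold change of 0.65 (SE 0.45), and NRT2.4 from 114 to 180, one of 0.66 (SE 0.46). Both intervals include 0. Whether reads shared with NRT2.1 enter the values of NRT2.2, here and in the other comparisons, was not tested.

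HO against SWT in water gives the background difference of the genotypes. Again 0 of 10 genes were called, beside 0.19% of all genes. Of the log2 differences 8 of 10 were negative, with a median of -0.22 against 0.0016 over all genes. NRT1.5 was nearly level, with a log2 difference of -0.04 (SE 0.29, 95% interval -0.61 to 0.53), as was NRT1.1 with 0.08 (SE 0.16). NRT2.2 had the lowest value, -0.86 (SE 0.42, unadjusted Wald p 0.0419), and it missed the adjusted threshold. An unadjusted p below 0.05 was found for 4.71% of all genes in this comparison. The low level of NRT2.2 in HO in water enters both this difference and its response to CT in HO, since those comparisons share the 3 HO water libraries. The same libraries enter the counts of signs in HO with CT, in this comparison and in the difference of responses below. Those counts are therefore not independent of each other.

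Whether SWT and HO responded differently to CT was tested directly, because a call in SWT and none in HO does not show that the genotypes differ. For NRT1.5 the response in SWT was lower than that in HO by a log2 value of -2.25 (SE 0.41, z test, adjusted p 5.54e-06), a 4.76-fold difference with a 95% interval from -3.06 to -1.45 on the log2 scale. NRT1.5 was the 1 gene of 10 called, beside 0.645% of all genes called lower, 3.31% called higher and 3.95% in either direction. The 95% interval for NRT1.5 lies beyond the fold criterion, but the z test against that criterion, adjusted over all genes, did not call it (adjusted p 1). The high-affinity transporters NRT2.2 and NRT2.4 had differences of -1.77 (SE 0.59, adjusted p 0.0657) and -1.74 (SE 0.65, adjusted p 0.137), which missed the threshold. NIA1 had -1.47 (SE 0.79) and NRT1.1 had -0.55 (SE 0.23). NRT3.1 and NIA2 were near 0 with -0.03 (SE 0.30) and -0.08 (SE 0.33). Of the 10 differences 9 were negative, with a median of -0.73 against -0.0043 over all genes, and NRT1.8 was positive with 0.70 (SE 0.93).

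HO against SWT with CT asks how the genotypes stood after treatment. It was derived from the 3 deposited comparisons and shares its SWT libraries with the SWT response, so it is no independent evidence for NRT1.5. In HO 4 of 10 genes were called higher, beside 4.28% of all genes called higher, 9% called lower and 13.3% in either direction. NRT1.5 was 4.63-fold higher, with a log2 difference of 2.21 (SE 0.29, z test, adjusted p 2.12e-12). NRT1.1 had a log2 difference of 0.64 (SE 0.16, adjusted p 0.00158), from 9746 in SWT to 15174 in HO, a group interval of 8325 to 11409 against one of 12964 to 17760. NRT2.4 had 1.46 (SE 0.46, adjusted p 0.0174), from 65.7 to 180, and NIA1 had 1.599 (SE 0.56, adjusted p 0.0368), from 1502 to 4548. In NRT1.1, NRT2.4 and NIA1 the value in SWT with CT was below and that in HO with CT above the corresponding water value, and neither of those differences passed on its own.

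The calls of NRT1.1, NRT2.4 and NIA1 were lost when the statistics were divided by their spread over all genes, with adjusted p of 0.166, 0.394 and 0.503, while that of NRT1.5 stayed at 4.23e-05. That spread was 1.517, where 22.9% of all genes had an unadjusted p below 0.05 (z test). It takes in genes that differ with CT, so a call lost by this division is not thereby shown to be false. In HO against SWT with CT, 7 of the 13 shoot markers were called higher in HO, beside 4.28% of all genes. Their part in the 4 calls of nitrate genes was not tested. NRT2.2 with 0.91 (SE 0.42), NRT2.1 with 0.61 (SE 0.45) and NIR1 with 0.53 (SE 0.26) had higher values in HO and were not called. NIA2 with -0.20 (SE 0.23), NRT3.1 with -0.16 (SE 0.21) and NRT1.8 with -0.94 (SE 0.66) had lower ones.

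**Figure D3:**
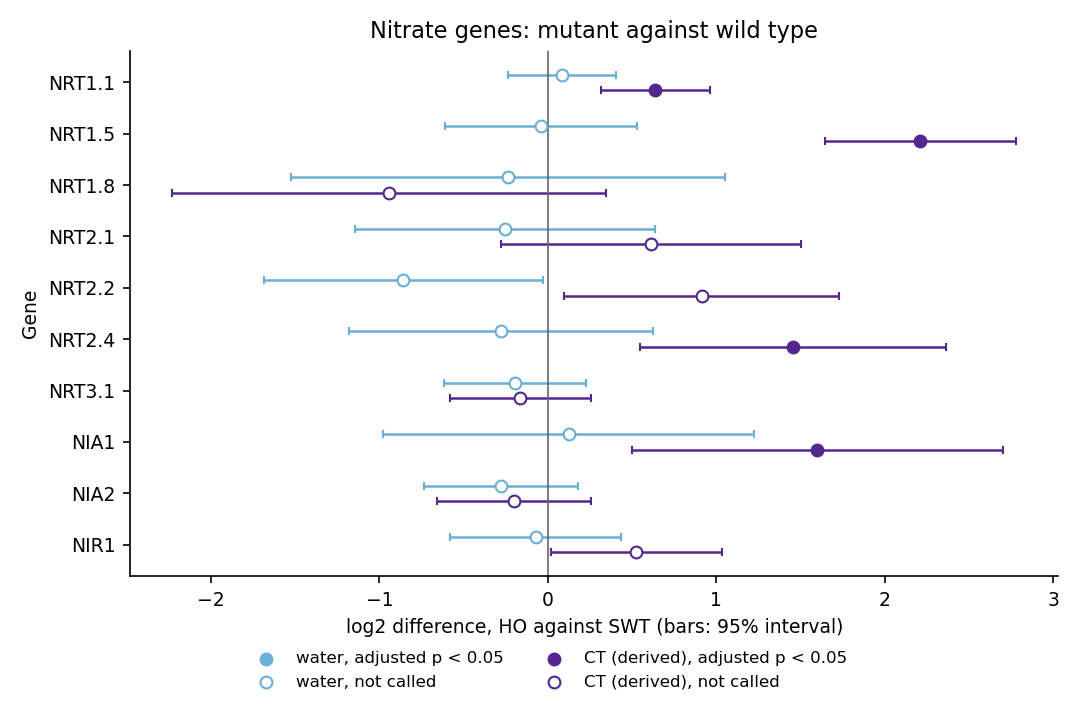
Log2 difference of HO against SWT (x axis) for the 10 nitrate genes, in water and with CT (derived); points are estimates, bars are 95% intervals and filled points passed an adjusted p of 0.05. With CT the filled points are NRT1.5 at 2.21, NIA1 at 1.599, NRT2.4 at 1.46 and NRT1.1 at 0.64, and no point is filled in water.

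Other steps of nitrogen uptake and use were read from 4 gene lists, whose counts in SWT stand beside 8.3% of all genes called higher and 3.23% called lower. Of the 18 other nitrate transporters and channels 16 were tested, and with CT in SWT 1 rose and 1 fell, near those shares, with a median of -0.15. NRT2.5, a high-affinity transporter of nitrogen-starved plants, rose from 5.23 (95% interval 2.21 to 12.4) to 42.0 (20.3 to 86.9), a log2 fold change of 3.005 (SE 0.83, DESeq2 adjusted p 0.00434). Its interval of 1.38 to 4.63 is the widest of the responses that passed among the genes named here, and its counts were low. SLAH3, an anion channel that conducts nitrate, fell from 1260 to 852, a log2 fold change of -0.56 (SE 0.15, adjusted p 0.00381). NRT2.5 thus changed in the direction opposite to the values of NRT2.1, NRT2.2 and NRT2.4, but its difference between the genotypes, 2.51 (SE 1.19, z test, adjusted p 0.341), was not called.

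Of 28 genes of nitrate signalling and regulation 27 were tested, and with CT in SWT 6 rose and 0 fell, beside 8.3% and 3.23% of all genes, with a median of 0.17. The calcium sensor CBL1 rose by a log2 value of 0.97 (SE 0.18, DESeq2 adjusted p 1.48e-06), from 446 to 872. CPK10, a calcium-dependent kinase that phosphorylates NLP7, rose by 0.74 (SE 0.17), but 1276 of its exon bases overlap genes on the other strand, so its reads are uncertain. CIPK8 rose by 0.57 (SE 0.13) and CIPK23, the kinase that phosphorylates NRT1.1, by 0.27 (SE 0.09). NLP7, the transcription factor at the head of the nitrate response, rose by 0.43 (SE 0.14), from 2348 to 3163. The remaining gene that rose lies outside the 6 that the naming rule takes from a list. NRG2, a positive regulator of nitrate signalling, had -0.19 (SE 0.12) and was not called. Several of these kinases also serve calcium signals other than nitrate.

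Of the 19 genes of the ammonium list 2 rose and 3 fell in SWT, beside 8.3% and 3.23% of all genes. AMT1;3, an ammonium transporter at the root surface, fell from 4351 (3598 to 5261) to 1920 (1586 to 2324), a log2 fold change of -1.18 (SE 0.20, DESeq2 adjusted p 1.22e-07). AMT1;2, which acts further inside the root, fell from 3237 to 1618, a log2 fold change with a 95% interval from -1.25 to -0.75 (SE 0.13, adjusted p 1.23e-12). AMT2, an ammonium transporter of a separate clade, rose from 743 to 1596, a log2 fold change of 1.103 (SE 0.13, adjusted p 8.95e-16). The ammonium transporters therefore showed calls in both directions, with smaller errors than those of NRT2.1 and NRT2.4. GLN2, the plastid glutamine synthetase, fell by 0.61 (SE 0.12), and GDH2, a glutamate dehydrogenase, rose by 0.66 (SE 0.20). Shoot markers also fell with CT in SWT, and their part in the decrease of GLN2 was not tested. GLN1;2, a cytosolic glutamine synthetase, had -0.49 (SE 0.18) and was not called.

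Of 16 genes for cofactors and reductant 4 rose and 0 fell in SWT, beside 8.3% and 3.23% of all genes, with a median of 0.20. CNX1, CNX6 and CNX2 make the molybdenum cofactor of nitrate reductase, and UPM1 makes a precursor of the siroheme of nitrite reductase. CNX1 rose from 1676 to 2609, a log2 fold change of 0.64 (SE 0.14, DESeq2 adjusted p 8.13e-05). CNX6 rose by 0.63 (SE 0.15), CNX2 by 0.37 (SE 0.12) and UPM1 by 0.47 (SE 0.16), and both CNX6 and UPM1 overlap genes on the other strand by 163 and 203 exon bases. RFNR2, a reductase that passes electrons to ferredoxin in roots, had -0.59 (SE 0.22) and was not called. The reductase genes NIA1, NIA2 and NIR1 themselves were not called in SWT.

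In HO with CT and in HO against SWT in water, 0 genes of the 4 lists were called (DESeq2 Wald test), beside 0.00866% and 0.19% of all genes. An unadjusted p below 0.05 was found for 0 and 1 of them (CNX2 in water), beside 1.85% and 4.71% of all genes. The responses of SWT and HO differed in 8 of the 78 genes tested in these lists, beside 3.95% of all genes (z test, adjusted over all genes): SLAH3, CBL1, CPK10, AMT2, AMT1;2, AMT1;3, GLN2 and CNX1. NRT2.5, NLP7, CIPK8, CIPK23, GDH2, CNX2, CNX6 and UPM1 passed in SWT without a called difference between the genotypes. In HO against SWT with CT (derived, z test), 10 of the 78 genes were called higher and 10 lower. This is 25.6% in either direction, beside 13.3% of all genes, with 4.28% higher and 9% lower. Of the named genes not called in SWT, 4 were called in this comparison, all higher in HO. NRT1.12, a nitrate transporter of leaf veins, had 0.36 (SE 0.11) and NRG2 had 0.36 (SE 0.12). GLN1;2 had 0.56 (SE 0.18) and RFNR2 had 0.68 (SE 0.22). Dividing the statistics by their spread ended all 4 of these calls, with adjusted p of 0.321, 0.426, 0.395 and 0.404. Of the 16 named list genes called in SWT, NRT2.5 alone was past the fold criterion, and 10 lost their call when the statistics were divided by their spread, which left CBL1, AMT2, AMT1;2, AMT1;3, GLN2 and CNX1.

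**Figure D4:**
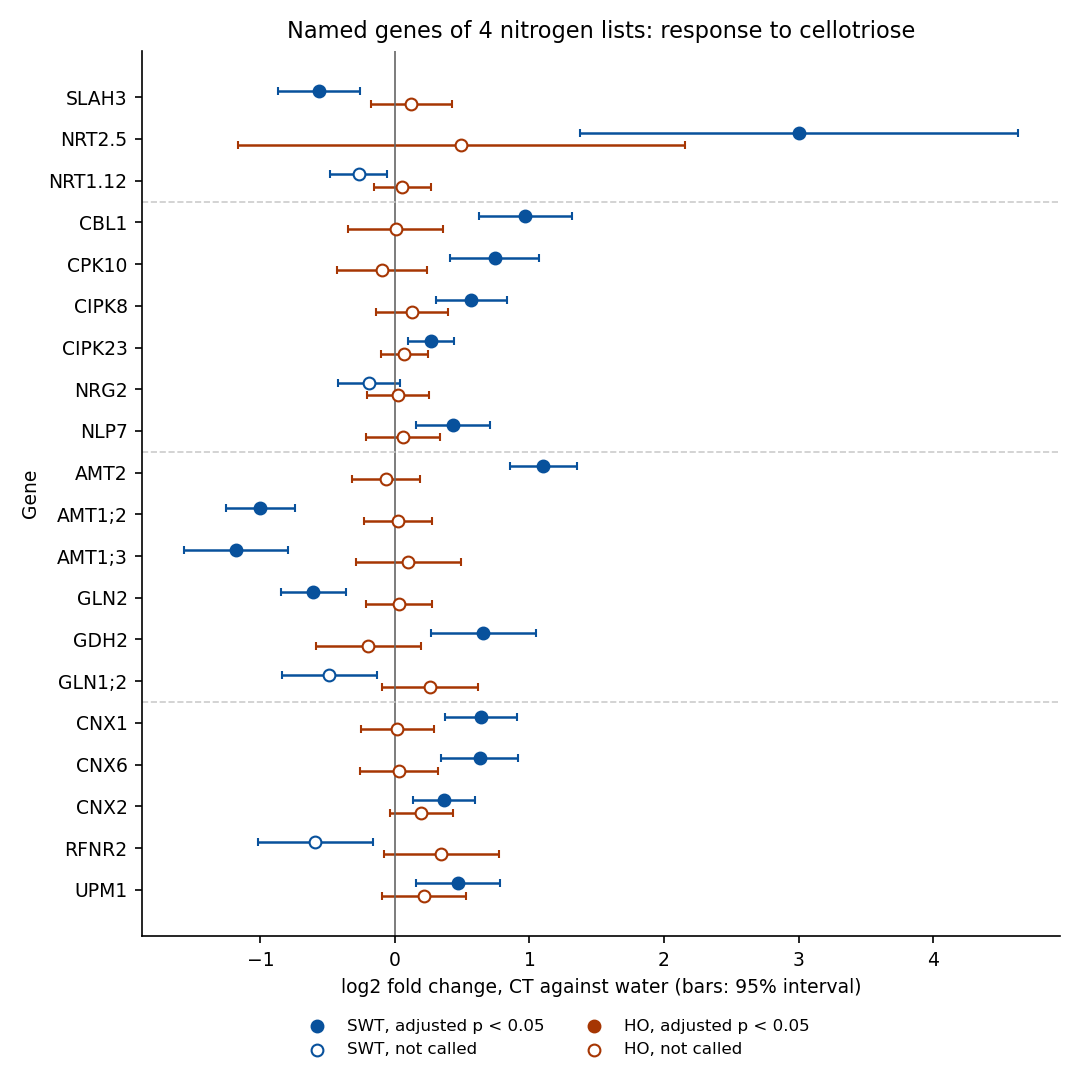
Log2 fold change of CT against water (x axis) in SWT and HO for the named genes of the 4 lists, separated by dashed lines (transporters and channels, regulators, ammonium genes, cofactor and reductant genes); bars are 95% intervals and filled points passed an adjusted p of 0.05. NRT2.5 at 3.005 lies farthest to the right, AMT1;3 at -1.18 farthest to the left, and no HO point is filled.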

How the data were processed

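RNA-seq reads of 12 root libraries in 4 groups of 3 were aligned by the authors to TAIR10 with STAR 2.7.10a, counted with featureCounts 2.0.1 and fitted with DESeq2 1.34.0. The sources used here do not give whether counting used the strand. Libraries were grouped by genotype and treatment in their labels.

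The authors deposited 3 tables with, per gene, a signal (the mean normalized count over all libraries), a log2 fold change and its log2 standard error, a score (the Wald statistic) and a p-value, raw and Benjamini-Hochberg adjusted. They hold 0 columns per library, so depth is unknown and the Wald tests of the authors served as the main tests (adjusted p below 0.05). These are comparison columns of the authors, used because the tables hold nothing else.

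Group means and 95% intervals were recovered from the mean, the fold changes and the dispersion implied by the standard errors, which agreed between tables (Spearman 1.00 across genes). The difference of responses was tested with z from the sum of squared standard errors, two-sided, Benjamini-Hochberg adjusted over 23103 genes. HO against SWT with CT was derived by adding the HO response to the water difference and subtracting the SWT response. Scripts were tested on simulated data. Named were all 10 members and, of the 4 lists, genes called in any comparison, up to 6 a list by smallest adjusted p. Members and lists were chosen with earlier results of these data known. NRT1.6, NRT3.2 and CEPD2 were not analysed here. Sequences, exon lengths and positions are those of TAIR10.1. Python 3.11.15, numpy 2.4.6, pandas 2.3.3, scipy 1.17.1, Biopython 1.88 and matplotlib 3.10.9 were used.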

Additional observations from a re-analysis of the deposited data

Results flagged for a closer look

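The CT response differed between SWT and HO by the z test, adjusted over all genes, for 9 of the genes named above. The log2 difference, SWT minus HO, was -2.25 for NRT1.5, the gene of the nitrate list. Among the transporters and channels it was -0.69 for SLAH3. Among the regulators it was 0.96 for CBL1 and 0.84 for CPK10. It was 1.17 for AMT2, -1.03 for AMT1;2, -1.28 for AMT1;3 and -0.64 for GLN2 in the ammonium list, and 0.62 for CNX1 among the cofactor genes. The calls of SLAH3, CPK10, GLN2 and CNX1 were lost with statistics divided by their spread (adjusted p 0.14, 0.0688, 0.0507 and 0.131).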

How the results depend on the processing

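Alternatives were other thresholds on the adjusted p, the study's fold criterion added or tested itself, statistics divided by their spread over all genes, other sets of genes for the adjustment, and centring on the median of genes with a mean of at least 50. At an adjusted p below 0.05, 11.5% of all genes were called in SWT with CT. The share was 3.95% in the difference of responses and 13.3% in HO against SWT with CT. Shares of all genes under the alternatives are not given here, so the counts below cannot be weighed against them. In SWT with CT, 2 nitrate genes (NRT1.1 and NRT1.5) were called at an adjusted p below 0.1. The test against the fold criterion called 0. In the difference of responses these counts were 2 (NRT1.5 and NRT2.2) and 0. In HO against SWT with CT, the 4 calls became 2 (NRT1.1 and NRT1.5) at an adjusted p below 0.01, 3 with the fold criterion added (without NRT1.1), 1 (NRT1.5) with divided statistics and 0 by the test against the fold criterion. HO with CT and the water comparison gave 0 under all of these. NRT1.5 was called in the 3 comparisons under all of them except that test, where its adjusted p was 1, 1 and 0.133, and no value of a named gene reversed. With divided statistics 10 list genes lost their call in SWT with CT, among them NRT2.5 (adjusted p 0.194) and SLAH3 (adjusted p 0.183). No paired analysis was possible because the tables carry no value per library, and for the same reason neither a replicate block nor leaving out a replicate was run, so whether 1 library decides a value is not known. The widest intervals limit NRT1.8, NIA1 and NRT2.4.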
